A study of Mus musculus with 2 samples.

Results

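The ligands Fasl, Tnf, Tnfsf10 and Ltb and the receptors Fas, Tnfrsf1a and Tnfrsf1b were followed in leukocytes from TSA tumors. These 7 genes were chosen by symbol, all 7 were among the 27998 gene symbols of both count tables, and none was chosen on its level. TSA is a mammary adenocarcinoma line of BALB/c origin, grown here under the skin of immunocompetent syngeneic mice. Hosts were either untreated or drank water with 0.5% nicotinamide (NAM, one of the B3 vitamers) over 10 days, and no genetic change or second agent separated the groups. The age of these animals is given only as a range over the whole study. From each group CD45+ cells (leukocytes) of 3 pooled tumors were sorted on magnetic beads and sequenced as 1 library of the droplet type, which counts UMIs (unique molecular identifiers, 1 for each captured RNA molecule).

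Fas ligand (the product of Fasl), TNF (Tnf) and TRAIL (Tnfsf10) are trimeric ligands of the TNF family that bind receptors on a neighboring cell or, once shed, at a distance. Fas and TNFR1 (Tnfrsf1a) carry a cytosolic death domain through which caspase-8 can be engaged, whereas TNFR2 (Tnfrsf1b) has no death domain and recruits TRAF adaptors. Lymphotoxin beta (Ltb) is not by itself a death ligand. It anchors lymphotoxin alpha at the cell surface and signals through its own receptor, which organizes lymphoid tissue. In tumors, Fas ligand is best known as a weapon of cytotoxic T and NK cells next to granzymes and perforin, and TNF as a product of activated macrophages.

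The untreated library held 2922 cells and 29161823 UMIs, the NAM library 3276 cells and 32090120 UMIs, and the median cell had 9056 and 9128 UMIs, respectively. Cells were gated by UMIs of marker genes. The T gate (2 or more UMIs of Cd3d, Cd3e and Cd3g) took 210 untreated and 269 NAM cells, the NK gate (no Cd3 UMI, 2 or more UMIs of receptors such as Ncr1) took 60 and 33, and the myeloid gate took 2417 and 2680. T cells were divided into CD8 T cells (101 and 155), regulatory-like T cells with markers such as Foxp3 and Il2ra (76 and 76), and other T cells (33 and 38). Myeloid cells were divided into macrophages (1811 and 2011), intermediates with both macrophage and monocyte markers (192 and 184), monocytes (213 and 264), dendritic cells (112 and 110) and other myeloid cells (89 and 111). Cells with lymphoid and myeloid markers at once (25 and 50) and cells that met no gate (210 and 244) entered no gated group. The former were only added to the lymphoid gates in an alternative, where stated. The latter were compared only among the flagged results near the end. Gated T cells still held myeloid marker RNA at 1146 and 1109 CPM (UMIs per 1000000 UMIs of the group), against 34529 and 36739 CPM in myeloid cells, and gated NK cells had no UMI of any of the 3 Cd3 genes. Macrophage markers in the dendritic gate summed to 2461 CPM in the untreated and 4112 CPM in the NAM library.

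With 1 library per group, no test was possible. Batch and NAM cannot be told apart, and a difference has no replicate check. Levels are given as CPM of the gated group, with exact 95% Poisson intervals, and differences as the log2 ratio of NAM over untreated, with exact conditional binomial intervals. These intervals cover counting error only. "Higher" and "lower" are used below where this interval leaves out 0. All 7 genes had 20 or more UMIs in T cells, 3 had them in NK cells and 6 in myeloid cells, and none of these values lay past 1.5 fold. Over all genes with 20 or more UMIs, 19.2% lay past 1.5 fold in T cells (7.73% higher and 11.4% lower with NAM), 25.6% in NK cells (11.9% and 13.7%) and 9.97% in myeloid cells (2.91% and 7.06%). In the subgroups 1 of 6 measured members lay past 1.5 fold in CD8 T cells (Fasl, against 20.4% of all genes), 0 of 6 in regulatory-like T cells (23.7%), 1 of 3 in other T cells (Tnfrsf1b, 29.3%), 0 of 6 in macrophages (9.73%), 1 of 6 in intermediates (Tnf, 14.7%), 2 of 5 in monocytes (Fas and Ltb, 19.6%) and 1 of 5 in dendritic cells (Tnf, 20.4%). Intervals left out 0 for Fasl (higher) in T cells, for Ltb (lower) in NK cells, and for Tnf, Tnfrsf1a and Ltb (higher) and Tnfrsf1b (lower) in myeloid cells. Over all genes with 20 or more UMIs they did so for 8.19% higher and 8.22% lower in T cells, 5.69% and 5.1% in NK cells, and 13.1% and 20.8% in myeloid cells. With so few members in each group, these shares say nothing about the 7 genes as a set. Genes that respond to tissue handling also differed between the libraries: 6 heat shock genes summed to 4826 CPM in untreated and 3695 CPM in NAM myeloid cells (log2 ratio -0.39, interval -0.40 to -0.37), and 8 immediate early genes to 4952 and 5425 CPM (0.13, 0.12 to 0.14). In T cells the heat shock genes summed to 5095 and 3507 CPM (-0.54, -0.59 to -0.49) and in NK cells to 4622 and 2992 CPM (-0.63, -0.78 to -0.48). The part of handling in the differences below was not tested.

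**Figure D1:**
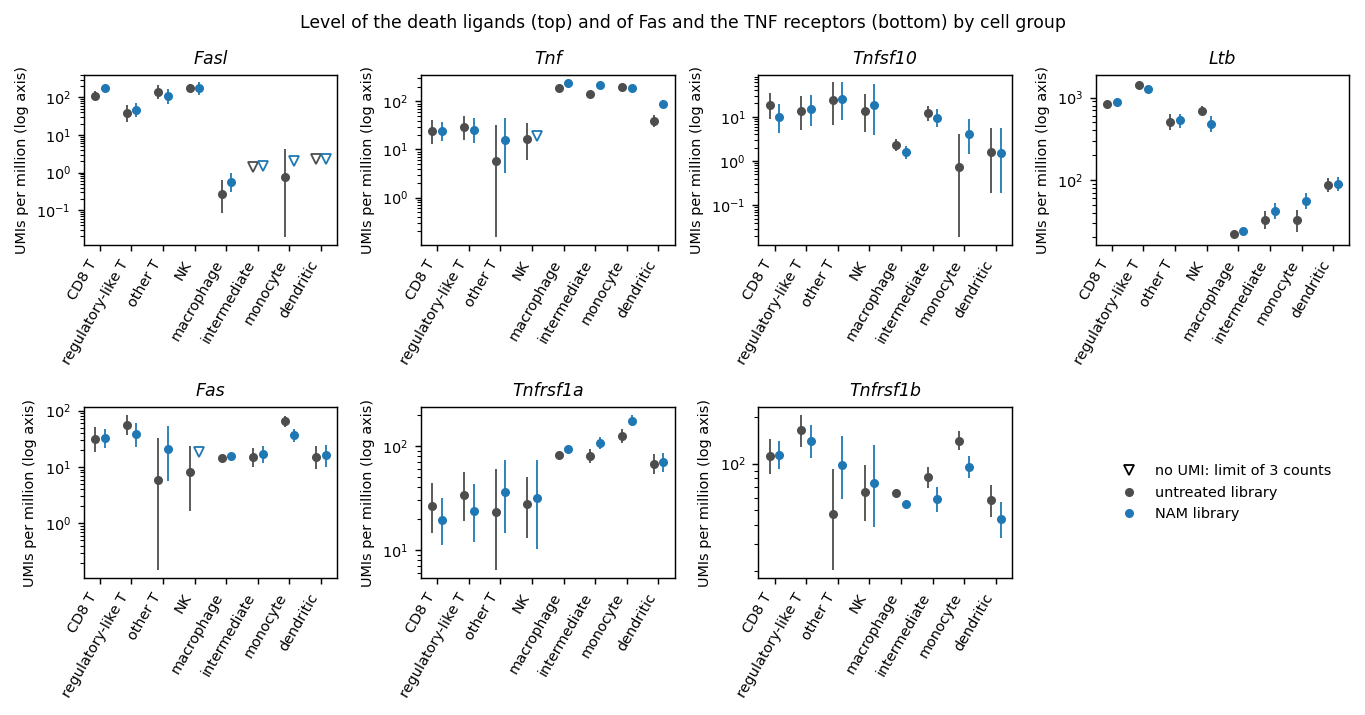
UMIs scaled to 1000000 per group (CPM, log axis) for each gene in 8 gated subgroups. Circles with bars are the level and its 95% Poisson interval in the untreated and the NAM library, and open triangles mark groups with no UMI, drawn at the level of 3 counts. Fasl and Ltb were highest in lymphoid groups, Tnf and Tnfrsf1a in myeloid groups.

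Fasl RNA was found in T and NK cells, and in T cells it was higher in the NAM library. The gene lies on chromosome 1 (GRCm38, 161780689 to 161788495, minus strand) and was captured sparsely, with 194 untreated and 254 NAM UMIs. T cells had 88.1 CPM untreated (interval 71.8 to 107, 101 UMIs) and 128 CPM with NAM (110 to 147, 189 UMIs), a log2 ratio of 0.54 (0.18 to 0.90). Fasl was singled out by the study on these same libraries, so its direction is not independent evidence. When the 3 T-cell subgroups were given the same weights in both libraries the log2 ratio was 0.44, and the CD8 share of T cells was 48.1% untreated (41.2 to 55.1) and 57.6% with NAM (51.5 to 63.6).

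CD8 T cells, which kill cells that present their antigen, accounted for most of the difference in counts. Their Fasl level was 113 CPM untreated (60 UMIs) and 178 CPM with NAM (146 UMIs), a log2 ratio of 0.66 (0.22 to 1.12) or 1.58 fold.  A Fasl UMI was present in 35.6% of untreated and 51.6% of NAM CD8 T cells. After thinning every cell to 3000 UMIs these shares were 28.7% (20.1 to 38.6) and 36.8% (29.2 to 44.9), so at equal depth the intervals of the shares overlap. Cells with 3 or more Fasl UMIs numbered 7 of 101 untreated and 18 of 155 NAM CD8 T cells, and no cell had more than 4. Summed RNA of 5 cytotoxic genes (Gzma, Gzmb, Prf1, Ifng and Nkg7) in CD8 T cells was 4171 CPM untreated and 4991 CPM with NAM (0.26, 0.18 to 0.33). Of the 5 genes, 3 had higher values with NAM, and the single-gene log2 ratios went from -2.01 to 0.88.

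Regulatory-like T cells, which restrain other T cells, had the lowest Fasl of the lymphoid groups. Their level was 38.4 CPM untreated (17 UMIs) and 47.6 CPM with NAM (22 UMIs), a log2 ratio of 0.31 (-0.67 to 1.31). The 5 highest cells held 13 of the 17 untreated and 10 of the 22 NAM UMIs, and without these cells the log2 ratio was 1.52 (-0.20 to 3.61). Over both libraries their interval (30.6 to 58.9 CPM) lay under those of CD8 T cells (132 to 175) and other T cells (89.6 to 164). Other T cells had 140 CPM untreated (24 UMIs) and 108 CPM with NAM (21 UMIs), a log2 ratio of -0.38 (-1.30 to 0.52) on few cells. The untreated other T cells also carried 321 CPM of 3 mast cell markers against 25.6 CPM in NAM. The intervals of the log2 ratio in the 3 T-cell subgroups overlap, and a difference of the NAM effect between them was not tested.

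In NK cells, innate lymphocytes that kill without antigen, the Fasl level was alike in both libraries but NK cells were fewer with NAM. The level was 178 CPM untreated (137 to 227, 65 UMIs) and 176 CPM with NAM (117 to 254, 28 UMIs), a log2 ratio of -0.02 (-0.71 to 0.64), an interval that allows differences of up to 0.71 downward. NK cells were 2.05% of all cells untreated (1.57 to 2.64) and 1.01% with NAM (0.69 to 1.41). At these cell numbers the NK gate held 33.5% of the untreated and 11.02% of the NAM Fasl UMIs, and T cells held 52.1% and 74.4%. By level the order was NK (178 CPM), other T (140) and CD8 T cells (113) in the untreated library, and CD8 T (178), NK (176) and other T cells (108) in the NAM library. Regulatory-like T cells were last in both. Within each library the intervals of the first 3 overlap, and with NAM those of regulatory-like and other T cells also overlap.

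Myeloid cells had few Fasl UMIs. They had 6 and 13 Fasl UMIs in 2417 and 2680 cells (0.249 and 0.492 CPM), and intermediates and dendritic cells had none, where 3 counts would be 1.45 to 2.37 CPM. At 3000 UMIs per cell the share with a Fasl UMI was 0.0552% of untreated and 0.199% of NAM macrophages, against 22.4% and 27.5% of T cells and 38.3% and 48.5% of NK cells. Per 100 Cd3 UMIs, untreated and NAM macrophages had 4.07 and 7.14 Fasl UMIs, on 5 and 12 Fasl UMIs, and T cells 2.61 and 3.34. The source of the Fasl UMIs in macrophages was not tested.

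**Figure D2:**
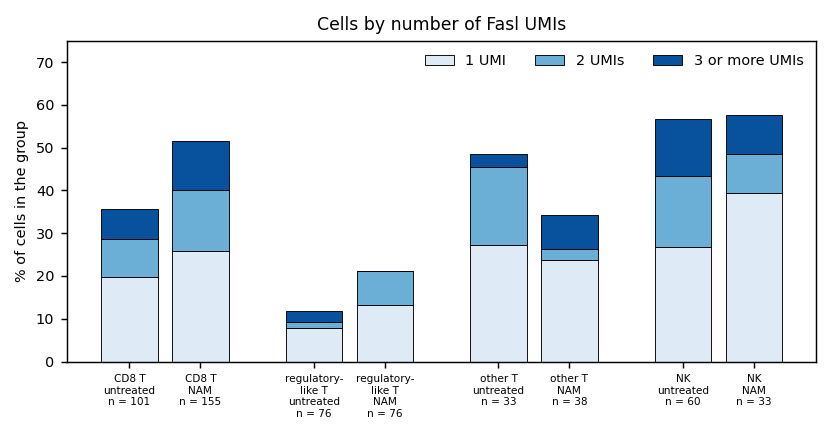
Percent of gated cells with 1, 2 and 3 or more Fasl UMIs (stacked shades) in the T-cell subgroups and NK cells of each library, at full depth. In CD8 T cells all 3 shades are larger in the NAM library, and the whole bar goes from 35.6% to 51.6%.

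Within groups, cells with Fasl were compared with cells without it, over both libraries. Among CD8 T cells, Gzmb (granzyme B) was found in 52.6% of 116 cells with Fasl (43.1 to 61.9) and 43.6% of 140 cells without (35.2 to 52.2), at median depths of 4641 and 4252 UMIs, and Ifng (interferon gamma) in 24.1% and 26.4%. Among regulatory-like T cells, Ifng was found in 4 of 25 cells with Fasl and 2 of 127 without, and Gzma (granzyme A) in 5 of 25 and 3 of 127, at median depths of 5698 and 4495 UMIs. Tnf had the opposite direction there, in 0 of 25 cells with Fasl and 19 of 127 without (0 of 9 and 9 of 67 untreated, 0 of 16 and 10 of 60 with NAM). Among other T cells, Ifng was found in 8 of 29 cells with Fasl and 0 of 42 without, at median depths of 4206 and 3946.5 UMIs (5 of 16 and 0 of 17 untreated, 3 of 13 and 0 of 25 with NAM). A count of 0 of 42 allows a share of cells with an Ifng UMI of up to 8.41%, and at this depth says nothing of cells that express Ifng without a captured UMI. In NK cells Gzma was found in 47.2% of 53 cells with Fasl (33.3 to 61.4) and 70.0% of 40 without (53.5 to 83.4). These shares describe cells of 1 pool per group and were not tested.

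Fas, the receptor for Fas ligand (chromosome 19, 34290666 to 34327772, plus strand), was not distinguishable between libraries in T cells or in myeloid cells as a whole. T cells had 37.5 CPM untreated (43 UMIs) and 33.1 CPM with NAM (49 UMIs), a log2 ratio of -0.18 (-0.80 to 0.45). Myeloid cells had 17.2 and 17.0 CPM (-0.02, -0.21 to 0.18). In monocytes, blood-derived precursors of macrophages, it was lower with NAM. Their Fas level was 64.3 CPM untreated (51.4 to 79.4, 86 UMIs) and 36.3 CPM with NAM (27.2 to 47.3, 54 UMIs), a log2 ratio of -0.82 (-1.34 to -0.32), or 1.77 fold lower with NAM.  At 3000 UMIs per cell Fas was found in 17.4% of untreated (12.5 to 23.1) and 8.71% of NAM monocytes (5.60 to 12.8). Macrophages (log2 ratio 0.13, -0.10 to 0.37) and intermediates (0.18, -0.56 to 0.93) had intervals that include 0, and a difference of the NAM effect between subgroups was not tested.

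The order of the groups by Fas level was not the same in both libraries. In the untreated library monocytes (64.3 CPM) and regulatory-like T cells (56.4 CPM, 36.5 to 83.3, 25 UMIs) were highest, followed by CD8 T cells (31.9 CPM, 18.6 to 51.1, 17 UMIs). With NAM regulatory-like T cells (38.9 CPM, 23.1 to 61.5, 18 UMIs), monocytes (36.3 CPM) and CD8 T cells (32.9 CPM, 21.7 to 47.9, 27 UMIs) had overlapping intervals. Other T cells had 1 and 4 Fas UMIs. Macrophages, intermediates and dendritic cells lay close together at 15.2, 16.0 and 15.7 CPM over both libraries. NK cells had 3 Fas UMIs untreated and 0 with NAM, where 3 counts would be 18.8 CPM, so a difference was not detectable at this depth.

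Tnf RNA came almost wholly from myeloid cells and was higher in the NAM library, but not in every myeloid subgroup. Myeloid cells held 95.5% of the untreated and 95.3% of the NAM library's Tnf UMIs. Their level was 179 CPM untreated (173 to 184, 4310 UMIs) and 228 CPM with NAM (222 to 233, 6011 UMIs), a log2 ratio of 0.35 (0.29 to 0.41) or 1.27 fold. A mean over cells, in which every cell has the same weight, gave 0.23. Macrophages had 190 and 243 CPM (0.36, 0.30 to 0.42) and intermediates 143 and 216 CPM (0.59, 0.37 to 0.81). Monocytes had 196 and 191 CPM (-0.04, -0.29 to 0.20). Other myeloid cells went the opposite way, from 211 to 151 CPM (-0.48, -0.84 to -0.13). Their heat shock genes also had the opposite direction to the other groups, with 4007 CPM untreated and 4613 CPM with NAM (0.20, 0.13 to 0.27), and the part of this in the Tnf values was not tested.

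Dendritic cells, which carry antigen to T cells, had 39.5 CPM of Tnf untreated (50 UMIs) and 89.5 CPM with NAM (115 UMIs), a log2 ratio of 1.18 (0.69 to 1.69). This rested on a few cells, since 5 cells held 75 of the 115 NAM UMIs, and without the 5 highest cells of each library the log2 ratio was 0.30 (-0.40 to 1.01). Macrophage markers in this gate were also higher in NAM, as given above. In macrophages Tnf was spread more widely, with 3 or more UMIs in 24.9% of untreated (22.9 to 27.0) and 29.5% of NAM cells (27.5 to 31.5), and the 5 highest cells held 4.22% and 4.37% of the UMIs. At 3000 UMIs per cell Tnf was found in 31.4% of untreated (29.3 to 33.6) and 38.5% of NAM macrophages (36.4 to 40.7). T cells had 23.6 and 23.7 CPM (27 and 35 UMIs) and their log2 ratio was 0.01 (-0.76 to 0.79).

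Myeloid cells were also split by UMIs of 5 interferon-induced genes (Rsad2, Ifit1, Ifit2, Ifit3 and Isg15). Tnf was higher with NAM in cells with none of them (148 and 205 CPM, log2 ratio 0.47, 0.36 to 0.58), in cells with 1 to 4 UMIs (189 and 247 CPM, 0.39, 0.30 to 0.47) and in cells with 20 or more (203 and 248 CPM, 0.29, 0.10 to 0.47). In cells with 5 to 19 UMIs the levels were 202 and 203 CPM (0.00, -0.13 to 0.14). Among macrophages alone, the log2 ratio was 0.50 (0.39 to 0.62) and 0.40 (0.31 to 0.49) in the first and second of these bins, and the interval included 0 in cells with 5 to 19 UMIs. In macrophages with 20 or more, Tnf was at 208 CPM untreated (267 UMIs in 97 cells) and 195 CPM with NAM (254 UMIs in 101 cells), a log2 ratio of -0.10 (-0.35 to 0.16), so the difference seen over all myeloid cells of this bin was not seen in its macrophages. By UMIs of 4 cell cycle genes the log2 ratio was 0.29 (0.21 to 0.36) in cells with none, 0.40 (0.30 to 0.51) with 1 to 4 and 0.49 (0.34 to 0.65) with 5 or more.

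Tnfsf10, which encodes TRAIL (chromosome 3, 27317028 to 27342427, plus strand), had the fewest UMIs of the 7 genes, 106 untreated and 93 with NAM. In myeloid cells its level was 3.03 CPM untreated (73 UMIs) and 2.27 CPM with NAM (60 UMIs), a log2 ratio of -0.41 (-0.93 to 0.10). T cells had 20 UMIs in each library, 17.4 and 13.5 CPM (-0.37, -1.34 to 0.60). Differences between the libraries were not detectable at this depth. Between groups the differences were larger than the counting error. Over both libraries T cells had 15.2 CPM (10.9 to 20.8) and intermediates 10.8 CPM (7.88 to 14.6), against 1.95 CPM (1.54 to 2.43) in macrophages and 2.48 CPM (1.00 to 5.10) in monocytes.

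In myeloid cells, the Tnfsf10 level was higher in cells with 5 or more UMIs of the 5 interferon-induced genes than in cells with fewer, in each library. Cells with none had 0.61 CPM untreated and 0.94 CPM with NAM (5 and 7 UMIs in 886 and 832 cells), and cells with 1 to 4 had 1.14 and 0.66 CPM. Cells with 5 to 19 had 4.25 and 3.68 CPM. Cells with 20 or more had 17.7 CPM untreated and 12.8 CPM with NAM (40 and 28 UMIs in 190 and 195 cells). The NAM over untreated log2 ratio in this last bin was -0.47 (-1.22 to 0.26). This pattern over bins is a description with no test.

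**Figure D3:**
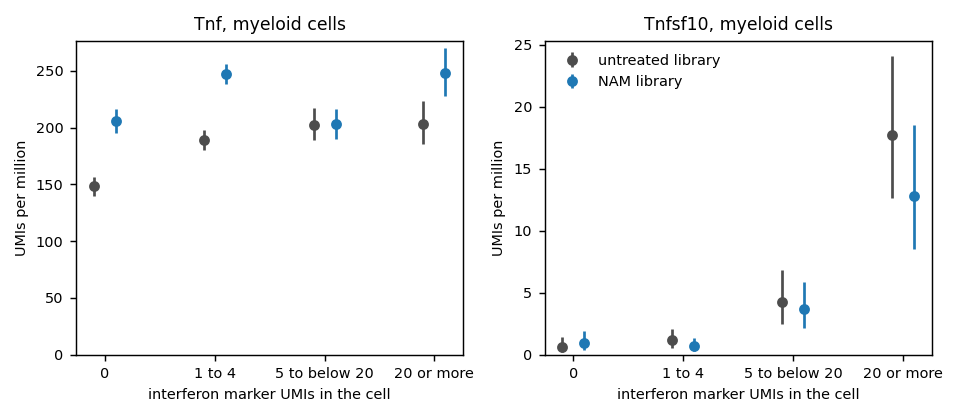
CPM of Tnf (left) and Tnfsf10 (right) in myeloid cells grouped by their UMIs of 5 interferon-induced genes, with 95% Poisson intervals, for each library. Tnf is higher with NAM, by an interval of the log2 ratio without 0, in 3 of 4 bins, and nearly equal (202 and 203 CPM) in cells with 5 to 19 UMIs, and Tnfsf10 goes from under 1 CPM in cells without these UMIs to 17.7 and 12.8 CPM in cells with 20 or more.

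Ltb and Tnf are neighbors on chromosome 17. Ltb lies at 35194439 to 35196320 on the plus strand and Tnf at 35199381 to 35202007 on the minus strand, with 3060 bases and no other annotated gene between them. The promoters of this pair are printed because the neighbors were expressed in different cells. The RefSeq windows (GRCm38.p6, 250 bases before to 50 after the start, in the direction of the gene) are chr17:35194257-35194556 for Ltb and chr17:35201958-35202257 for Tnf. Capitals mark matches to 5 motifs searched on both strands: the kappa B motif (GGGA, any base, TTTCC), the interferon response element (GAAA, any 2 bases, GAAA), TTCNNNGAA (the gamma-activated site), TGANTCA (AP-1) and TATAAA (the TATA box).
Ltb: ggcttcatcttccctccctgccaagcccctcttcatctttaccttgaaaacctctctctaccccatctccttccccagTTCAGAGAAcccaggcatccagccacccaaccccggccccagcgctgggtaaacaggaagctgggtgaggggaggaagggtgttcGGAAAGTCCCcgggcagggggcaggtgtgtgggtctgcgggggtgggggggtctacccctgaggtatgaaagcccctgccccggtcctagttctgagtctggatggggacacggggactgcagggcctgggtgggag
Tnf: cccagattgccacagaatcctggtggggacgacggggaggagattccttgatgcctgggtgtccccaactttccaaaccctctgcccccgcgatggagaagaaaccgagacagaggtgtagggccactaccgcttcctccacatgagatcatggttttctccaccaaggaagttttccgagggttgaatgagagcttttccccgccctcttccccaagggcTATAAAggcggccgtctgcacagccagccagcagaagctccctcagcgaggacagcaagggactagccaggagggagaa

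Of the windows of the 7 genes, only that of Ltb held the kappa B motif in the form searched. The match lay on the strand opposite to the gene, from 87 to 78 bases before its start. This form was held by 0.411% of all 32851 promoters. The Ltb window also held the gamma-activated site, as did those of Fas, Tnfrsf1a and Tnfrsf1b, 4 of the 7, and 8.3% of all promoters. Only the Tnf window held a TATA box, from 29 to 24 bases before its start (13.6% of all promoters), and only the Fas window held the AP-1 motif (7.81%). The windows of Fasl and Tnfsf10 held none of the 5. The motifs were chosen after seeing which of these genes they matched. The shares of all promoters are therefore no test of these matches. Each motif was searched only as written, from 250 bases before to 50 after the start. A window without a match does not show that a gene lacks such sites further away or in another form. The reference is that of another mouse strain than BALB/c.

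Ltb was abundant in lymphocytes, where it did not differ between the libraries in T cells and was lower with NAM in NK cells. T cells had 1008 CPM untreated (950 to 1067, 1155 UMIs) and 969 CPM with NAM (920 to 1021, 1433 UMIs), a log2 ratio of -0.06 (-0.17 to 0.06), so the counting error allows a difference of up to 0.17 downward. Regulatory-like T cells were highest, at 1420 and 1287 CPM (-0.14, -0.31 to 0.02), then CD8 T cells at 825 and 896 CPM (0.12, -0.05 to 0.29) and other T cells at 508 and 528 CPM (0.05, -0.37 to 0.48). In both libraries the intervals of these 3 subgroups do not overlap. NK cells had 692 CPM untreated (609 to 783, 253 UMIs) and 483 CPM with NAM (381 to 604, 77 UMIs), a log2 ratio of -0.52 (-0.91 to -0.15). At 3000 UMIs per cell Ltb was found in 68.3% of untreated (55.0 to 79.7) and 78.8% of NAM NK cells (61.1 to 91.0), with overlapping intervals. Cells with 3 or more Ltb UMIs at full depth were 36 of 60 untreated (60.0%, 46.5 to 72.4) and 13 of 33 with NAM (39.4%, 22.9 to 57.9). The NK cells had a median depth of 5356.5 UMIs untreated and 4353 with NAM, and their 5 cytotoxic genes summed to 7273 and 11948 CPM (0.72, 0.63 to 0.80) and 4 cell cycle genes to 435 and 201 CPM. Their part in the Ltb difference was not tested. Where cells with both lymphoid and myeloid markers were added to the T cells, the Ltb log2 ratio in T cells became -0.23 (-0.34 to -0.12).

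Myeloid cells had far less Ltb, 26.8 CPM untreated and 30.6 CPM with NAM (0.19, 0.04 to 0.34). The interval included 0 after thinning to 3000 UMIs per cell (0.06, -0.20 to 0.32) and with 2 times the myeloid share required by the gate (0.13, -0.03 to 0.28). Dendritic cells were highest among them at 86.1 and 89.5 CPM (0.06, -0.33 to 0.45). Monocytes had 32.1 CPM untreated (43 UMIs) and 55.8 CPM with NAM (83 UMIs), a log2 ratio of 0.80 (0.25 to 1.36). Per 100 Cd3 UMIs (5 untreated and 14 NAM Cd3 UMIs in all) monocytes had 860 and 593 Ltb UMIs, against 29.9 and 25.3 in T cells.

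The 2 TNF receptors differed in opposite directions in myeloid cells. Tnfrsf1a, the death domain receptor (chromosome 6, 125349362 to 125362484, plus strand), was at 82.1 CPM untreated (78.5 to 85.8, 1980 UMIs) and 97.2 CPM with NAM (93.5 to 101, 2568 UMIs), a log2 ratio of 0.24 (0.16 to 0.33). Tnfrsf1b, the receptor without a death domain (chromosome 4, 145213463 to 145246870, minus strand), was at 70.4 CPM untreated (67.1 to 73.8, 1698 UMIs) and 57.2 CPM with NAM (54.3 to 60.1, 1510 UMIs), a log2 ratio of -0.30 (-0.40 to -0.20). Both differences are small, under 1.5 fold, and neither rests on a few cells, as the 5 highest cells held from 1.36% to 2.24% of the UMIs of each receptor.

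Among the myeloid subgroups, monocytes had the highest levels of Tnfrsf1a and, by their point estimates, the largest differences of both receptors, with intervals that overlap those of intermediates. Their Tnfrsf1a was 125 CPM untreated and 175 CPM with NAM (0.49, 0.20 to 0.78), and their Tnfrsf1b 141 and 95.4 CPM (-0.57, -0.89 to -0.24). In intermediates Tnfrsf1a was 80.4 and 107 CPM (0.41, 0.11 to 0.71) and Tnfrsf1b 81.4 and 58.7 CPM (-0.47, -0.83 to -0.12). In macrophages Tnfrsf1a was 81.0 and 93.3 CPM (0.20, 0.11 to 0.30) and Tnfrsf1b 64.4 and 54.9 CPM (-0.23, -0.35 to -0.11). In dendritic cells neither interval left out 0, with 0.06 (-0.38 to 0.51) for Tnfrsf1a and -0.40 (-0.93 to 0.12) for Tnfrsf1b.

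The share of Tnfrsf1a among the UMIs of both receptors does not depend on how the libraries are scaled. In myeloid cells it was 53.8% of 3678 UMIs untreated (52.2 to 55.5) and 63.0% of 4078 UMIs with NAM (61.5 to 64.5). In monocytes it was 46.9% (41.6 to 52.2) and 64.8% (59.9 to 69.4), in intermediates 49.7% (44.2 to 55.2) and 64.5% (59.1 to 69.7), in macrophages 55.7% (53.8 to 57.6) and 62.9% (61.2 to 64.6), and in dendritic cells 53.8% (45.7 to 61.8) and 61.6% (53.2 to 69.6). The intervals of the libraries overlap in dendritic cells and not in the other groups. At 3000 UMIs per cell, monocytes with Tnfrsf1a alone were 21.1% untreated (15.8 to 27.2) and 29.9% with NAM (24.5 to 35.8). Those with Tnfrsf1b alone were 21.6% (16.3 to 27.7) and 14.0% (10.1 to 18.8), and 9.86% and 8.71% had both. Macrophages with Tnfrsf1a alone were 18.8% (17.0 to 20.7) and 19.8% (18.1 to 21.6). Macrophages with Tnfrsf1b alone were 13.4% (11.8 to 15.0) and 11.2% (9.84 to 12.6). For these shares of cells with 1 receptor alone, the intervals of the libraries overlap.

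**Figure D4:**
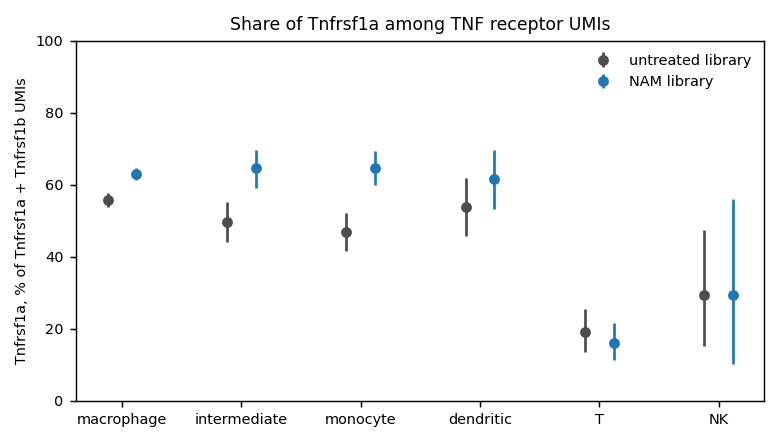
Percent of Tnfrsf1a among UMIs of Tnfrsf1a and Tnfrsf1b together, by gated group, for the untreated and the NAM library, with 95% Clopper-Pearson intervals. The NAM values lie above the untreated ones in the 4 myeloid groups, without overlap of intervals in macrophages, intermediates and monocytes, while T cells lie at 18.97% and 16.04%.

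T cells had mostly Tnfrsf1b, with 123 CPM untreated and 120 CPM with NAM (-0.03, -0.36 to 0.30), and little Tnfrsf1a, 28.8 and 23.0 CPM (-0.32, -1.06 to 0.41). Regulatory-like T cells had the highest Tnfrsf1b of the lymphoid groups over both libraries, at 152 CPM (128 to 180), but its interval overlaps that of CD8 T cells (114 CPM, 96.6 to 133). NK cells had 65.6 and 75.3 CPM of Tnfrsf1b on 24 and 12 UMIs (0.20, -0.94 to 1.25).

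The promoters of the receptor pair are printed because these genes differed in opposite directions in the same cells. The windows are chr6:125349473-125349772 for Tnfrsf1a and chr4:145246821-145247120 for Tnfrsf1b (GRCm38.p6, in the direction of the gene, motif matches in capitals as above).
Tnfrsf1a: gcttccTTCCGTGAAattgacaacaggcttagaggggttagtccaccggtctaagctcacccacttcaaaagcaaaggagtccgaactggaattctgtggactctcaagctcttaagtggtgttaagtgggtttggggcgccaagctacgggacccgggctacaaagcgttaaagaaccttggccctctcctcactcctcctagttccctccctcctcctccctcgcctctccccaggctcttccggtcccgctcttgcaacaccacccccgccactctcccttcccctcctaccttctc
Tnfrsf1b: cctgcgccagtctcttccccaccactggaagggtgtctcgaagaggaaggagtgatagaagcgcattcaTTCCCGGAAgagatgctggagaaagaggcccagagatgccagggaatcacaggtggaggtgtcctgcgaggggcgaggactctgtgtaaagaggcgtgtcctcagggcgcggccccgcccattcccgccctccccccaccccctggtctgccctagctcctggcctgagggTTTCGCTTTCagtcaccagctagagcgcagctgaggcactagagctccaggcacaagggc

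Both windows held the gamma-activated site. The Tnfrsf1a window and its site lie inside the gene as GENCODE places it (from 125349362), because RefSeq sets the start further downstream. Only the Tnfrsf1b window held the interferon response element, on the strand opposite to the gene, from 10 bases before its start, and 3.44% of all promoters held this motif.

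**Figure D5:**
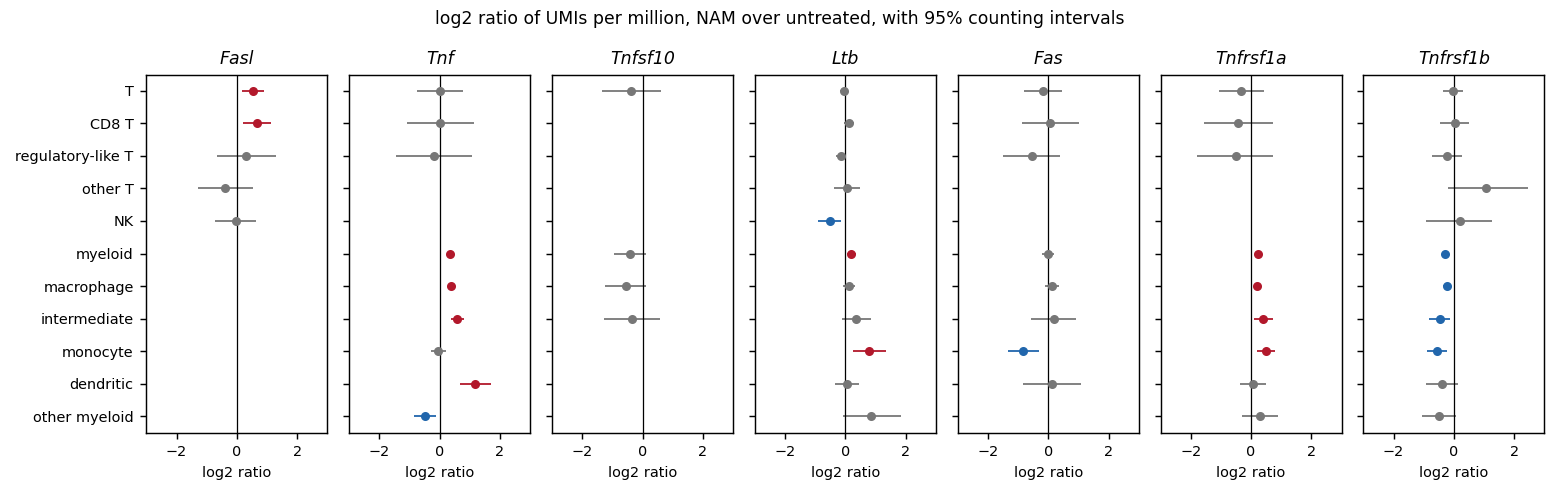
log2 ratio of CPM, NAM over untreated, for the 7 genes in T, NK and myeloid cells and their subgroups, where both libraries together had 20 or more UMIs and each had at least 1. Bars are 95% conditional binomial intervals, red and blue mark intervals wholly above and below 0. Tnf, Tnfrsf1a and Tnfrsf1b are colored in myeloid rows only, Fasl in T cells and CD8 T cells, Ltb in NK cells, myeloid cells and monocytes, and Fas in monocytes.

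The other genes of the pathway were taken as 5 lists. Of the other TNF family ligands with 20 or more UMIs in T cells, 0 of 6 lay past 1.5 fold higher and 4 of 6 past 1.5 fold lower with NAM, and their median log2 ratio was -0.94 against 0.00 over all 7725 genes measured, of which 11.4% lay past 1.5 fold lower. Tnfsf8 (CD30 ligand) was at 60.2 CPM untreated and 19.6 CPM with NAM (-1.62, -2.30 to -0.97) and Tnfsf11 (RANK ligand) at 47.1 and 24.4 CPM (-0.95, -1.60 to -0.32). Lta, the partner of Ltb, had 27 and 18 UMIs (-0.95, -1.90 to -0.04). All 4 had intervals without 0, against 8.22% of all genes. The list values in T cells are over all T cells, without a fixed makeup. Regulatory-like cells were 36.2% of T cells untreated and 28.3% with NAM, and 3 mast cell markers summed to 76.8 and 21.0 CPM in T cells. The part of T-cell makeup in these values was not tested. In the other 4 lists the genes counted differed with the rule used. In T cells 0 of 10 other receptors lay past 1.5 fold higher and 3 of 10 past 1.5 fold lower, of which 1 had an interval without 0, Cd40 (25 and 6 UMIs). Relt (7 and 14 UMIs) had a log2 ratio of 0.63 (-0.77 to 2.18), and was not counted as higher only because these counts used a pseudocount of 0.5. Of the death signalling genes 1 of 17 lay past 1.5 fold higher, Xiap, with an interval that includes 0 (0.69, -0.02 to 1.44), and 1 of 17 past 1.5 fold lower. Of the adaptors and ubiquitin enzymes 3 of 18 lay past 1.5 fold lower, and intervals without 0 were found for 3 of 18, with only Otulin in both counts. Cyld and Tnip1 had intervals without 0 at under 1.5 fold, and Traf3 and Ikbkg lay past 1.5 fold with intervals that include 0. Of the genes of Tnf processing and RNA decay 2 of 9 lay past 1.5 fold lower, and 3 of 9 had intervals without 0, all lower (Zfp36, Zfp36l1 and Zfp36l2). Ripk1, the kinase that couples TNFR1 to survival or death, was at 36.6 and 19.6 CPM (-0.90, -1.64 to -0.18), Otulin, which removes linear ubiquitin, at 73.3 and 36.5 CPM (-1.004, -1.53 to -0.49), and Zfp36, which speeds the decay of Tnf mRNA, at 98.6 and 60.9 CPM (-0.70, -1.11 to -0.28).

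In myeloid cells, 2.91% of 12160 genes lay past 1.5 fold higher and 7.06% past 1.5 fold lower with NAM. Intervals without 0 were more frequent at this depth, with 13.1% of genes higher and 20.8% lower. Of the other ligands 2 of 8 lay past 1.5 fold higher, both with intervals without 0, and 3 of 8 were lower at under 1.5 fold. Tnfsf13b (BAFF, a B-cell survival factor) had 14.3 CPM untreated and 22.5 CPM with NAM (0.65, 0.46 to 0.85). Of the other receptors 2 of 16 were higher and 5 of 16 lower by their intervals. Past 1.5 fold were Tnfrsf9 (4-1BB, a costimulatory receptor) at 26.1 and 48.3 CPM (0.89, 0.75 to 1.03), Cd27 at 6.47 and 3.14 CPM (-1.04, -1.44 to -0.65), and Tnfrsf8 on 14 and 6 UMIs, with an interval that includes 0.

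Of the death signalling genes in myeloid cells, 4 of 19 were higher and 5 of 19 lower by their intervals, and 1 of 19 lay past 1.5 fold. This was Fadd, the adaptor between Fas or TNFR1 complexes and caspase-8, at 13.4 and 8.03 CPM (-0.74, with an interval of -0.9998 to -0.49). The higher genes were Ripk3 (0.37, 0.25 to 0.49) and Mlkl (0.28, 0.07 to 0.50), the kinase and the effector of necroptosis, and Bak1 (0.21, 0.12 to 0.31) and Bax (0.12, 0.07 to 0.16), which open the mitochondrial outer membrane. The other lower genes were Cflar, which encodes the caspase-8 regulator c-FLIP (-0.48, -0.56 to -0.40), Apaf1 (-0.44, -0.66 to -0.22), Bid (-0.24, -0.44 to -0.03) and Faf1 (-0.24, -0.39 to -0.08). Of the adaptors and ubiquitin enzymes 9 of 19 were lower and 1 of 19 higher by their intervals, the latter Sharpin (0.22, 0.08 to 0.37). Of these, 2 lay past 1.5 fold, Otulin at 53.2 and 29.9 CPM (-0.83, -0.96 to -0.70) and Tnip1, a partner of the NF-kappa B inhibitor A20, at 46.4 and 27.8 CPM (-0.74, -0.88 to -0.61). Tnfaip3, which encodes A20, was at 125 and 99.8 CPM (-0.33, -0.40 to -0.25). Of the 12 genes of Tnf processing and RNA decay none was past 1.5 fold, and 7 were lower and 1 higher by their intervals. In NK cells the 5 lists had 0, 3, 7, 9 and 8 genes with 20 or more UMIs, and none of them met the rule for naming.

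For each of the 7 genes, the genes most like it in pattern were sought among 10209 genes over the 8 subgroups in both libraries (16 points, log2 of CPM + 1, libraries and depth shared between points). Fasl was most like Prkcq, Ctsw and Cd96 (Pearson r of 0.99 each) and Ltb most like Tnfrsf18, Ptprcap and Vgll4 (0.98 each). Tnf was most like Znhit1 and Plod3 (0.96 and 0.95), Tnfrsf1a most like Msrb1, Cxcl2 and Alpk1 (0.97, 0.96 and 0.96), and Tnfrsf1b most like Hif1a, Stx11 and Abhd17c (0.91, 0.87 and 0.85). Fas was most like Rnf215, Npepps and Amn1 (0.91, 0.90 and 0.90) and Tnfsf10 most like Cox18, Ctla2a and Ngdn (0.87 each). These are descriptions with no test.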

How the data were processed

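From 10x Genomics 3′ libraries aligned to mm10, the authors counted UMIs with Cell Ranger, and these raw counts are what was deposited. Each of the deposited cells held 3001 or more UMIs. The annotation version is not given in the sources used here. UMIs of gated cells were summed per library and divided by the group total (CPM). The myeloid gate needed 0.5% or more of a cell's UMIs in 9 of 10 markers present, or 3 dendritic UMIs, and lymphoid gates needed a share below 0.5%. Of 6198 cells, 541 lay between 0.5 and 2 times this share. Gate thresholds were set after marker values were seen, and doublets were removed only as cells with both kinds of marker. The members and lists were chosen with earlier results of these data known. Shares carry Clopper-Pearson intervals. List medians and counts of genes past 1.5 fold used genes with 20 or more UMIs and a pseudocount of 0.5, while printed log2 ratios used none. Named list genes had 50 or more UMIs, lay past 1.5 fold and had intervals without 0, up to 3 in each direction for each list and group (Lta, and genes counted by only one of these criteria, were named in addition, after their values were seen). For thinning, 3000 UMIs were drawn per cell (seed 1), which left out no cell. Of the barcodes, 11 were shared by the libraries. Intervals were run on simulated counts drawn with counting error only. This leaves out the spread between cells and between animals, so it cannot show how well the intervals hold for these data. Alternatives were other gates, scaling by median of ratios, thinning, means over cells, and leaving out the highest or deepest cells. Coordinates come from GENCODE vM21 (GRCm38) by symbol, promoters from RefSeq, with all 7 genes matched. A further gene of similar pattern is not reported here. Python 3.11.15, NumPy 2.4.6, SciPy 1.17.1, pandas 2.3.3 and matplotlib 3.10.9 were used.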

Additional observations from a re-analysis of the deposited data

Results flagged for a closer look

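In the cells that met no gate (210 untreated and 244 NAM), the NAM library was above the untreated library for a pair of genes. Tnf was at 39.5 CPM untreated (129 UMIs) and 55.8 CPM with NAM (195 UMIs), a log2 ratio of 0.50 (counting interval 0.17 to 0.83). Tnfrsf1a was at 54.2 CPM (177 UMIs) and 71.2 CPM (249 UMIs), a log2 ratio of 0.39 (0.11 to 0.68). Fasl had the opposite direction, with 4.29 CPM untreated (14 UMIs in 8 cells, 7 of them with an NK marker UMI and 5 with a Cd3 UMI) and 0.86 CPM with NAM (3 UMIs in 3 cells, 2 of them with an NK marker UMI and 2 with a Cd3 UMI), a log2 ratio of -2.32 (-4.76 to -0.48). Over both libraries these cells had 4337 CPM of Ctsk and 6488 CPM of Acp5, against 58.6 and 176 CPM in myeloid cells. They also had 128 CPM of Gzmc and 89.3 CPM of Gzmf, against 1.56 and 0.51 CPM in myeloid cells. Gzmc was far higher in NK cells (3165 CPM) and was at 101 CPM in T cells. Gzmf was at 5.71 CPM in NK cells and 40.8 CPM in T cells. These 4 genes were picked after their values were seen. Other marker lists also differed between the libraries in these cells. The 5 cytotoxic genes summed to 237 CPM untreated and 70.3 CPM with NAM, 4 neutrophil markers to 137 and 248 CPM, 5 interferon-induced genes to 398 and 556 CPM, and 9 myeloid markers to 2974 and 3519 CPM. Their part in the differences was not tested.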

How the results depend on the processing

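No paired analysis was possible because each group is 1 library. Of 190 alternative values of the 7 genes in T, NK and myeloid cells and of Fasl in CD8 T cells, 187 stayed within the counting interval of the reported value and none changed the sign of a called difference. The 3 others were Tnf in myeloid cells as a mean over cells (0.23), Tnfrsf1a in myeloid cells thinned to 3000 UMIs (0.16, 0.01 to 0.31), and, chosen after seeing the data, Ltb in T cells with the cells of mixed markers added (-0.23). Over all alternatives the log2 ratio ranged from 0.39 to 0.69 for Fasl in T cells, from 0.59 to 0.86 for Fasl in CD8 T cells (the highest without the 5 highest cells, which held 26.7% of the untreated but 13.7% of the NAM UMIs, so that leaving them out raises the ratio), from 0.23 to 0.38 for Tnf, from 0.16 to 0.31 for Tnfrsf1a and from -0.31 to -0.27 for Tnfrsf1b in myeloid cells, and from -0.78 to -0.47 for Ltb in NK cells. For myeloid cells, Ltb ranged from 0.06 to 0.22, with intervals that include 0 after thinning and at 2 times the myeloid share, and Tnfsf10 from -0.47 to 0.07. In subgroups, 125 of 127 values stayed within the interval. The exceptions, both without the 5 highest cells, were Tnf in dendritic cells (0.30) and Fasl in regulatory-like T cells (1.52, -0.20 to 3.61). Thinning moved 27 of 42 shares out of their interval, as fewer UMIs give fewer cells with 1. With 100 in place of 20 UMIs, 5 of 13 list medians moved by over 0.1, and the median of the genes of Tnf processing and RNA decay in T cells became -0.25. Depth limits Tnfsf10 in every group, and Fas, Tnf and Tnfrsf1a in NK cells.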
